A study of Mus musculus with 12 samples.

Results

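The genes described here belong to families of enzymes known for adding or removing methyl and acetyl groups on histones. Some members act on other proteins. The genes were chosen by symbol as every gene named Kdm1 to Kdm8, Kmt2, Setd, Hdac, Sirt1 to Sirt7, Prmt or Kat with a number, which gave 66 of the 21671 genes with a symbol. By family these were 18 Kdm, 5 Kmt2, 10 Setd, 11 Hdac, 7 Sirt, 8 Prmt and 7 Kat genes. Of the 66, 65 had enough reads to be tested. Prmt8 had no read in any of the 12 libraries, and Kdm4d, which was tested, had 2 to 26 reads per library.

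RNA was sequenced from mouse splenic B cells that had been labelled with a division-tracking dye, transferred into uMT mice and challenged with LPS, a bacterial activator of B cells. The cells were sorted 3 days later by the number of divisions into 6 groups of 2 libraries each, 1 from host 196 and 1 from host 197. Div0, Div1, Div3 and Div5 had divided 0, 1, 3 and 5 times. Div8neg and Div8pos had both divided at least 8 times and were sorted without and with surface CD138, a marker of antibody-secreting cells.

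All groups shared the LPS challenge, the spleen as tissue, the age of 8 weeks and the uMT host, which lacks mature B cells of its own. The sources differ on the mice: the sample labels give the strain B6.SJL-Ptprca Pepcb/BoyJ, and the design text gives C57/BL6J donors. The sample labels also give the sex as female, whereas the Y-linked member Kdm5d was read in every library and Xist did not exceed 0.454 CPM. How many donors supplied the cells of each host was not given in the sources used here, so the p-values measure the spread between these libraries.

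Many of the enzymes work in opposing pairs. Many Kmt2 and Setd proteins write lysine methylation and many Kdm proteins remove it, Kat proteins write lysine acetylation, and many Hdac and Sirt proteins remove it. Prmt proteins methylate arginine, on histones and on many RNA-binding and splicing proteins. In B cells such enzymes act with lineage transcription factors when the programme of a plasma cell replaces that of a B cell.

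Each library held 11541406 to 14961666 reads over genes with a symbol. The authors' spike-in scaling put 30490 ± 4360 mRNAs in a Div0 cell and 163000 ± 15600 in a Div8pos cell (SD, n = 2). The sorted identity was visible in the marker genes: 10 B cell markers summed to 11600 to 11900 CPM in Div0 and 990 to 1010 in Div8pos, and 9 plasma cell markers to 591 to 645 and 6340 to 6560. Of markers of other lineages, the 10 T cell genes summed to at most 7.31 CPM, with 1 gene at 0 in all libraries. The myeloid sum was 141 to 178 CPM in Div8neg and 15.1 to 15.3 in Div8pos, and the dendritic sum 50.5 to 67.4 and 2.19 to 2.63. These sums moved with the groups mainly through Itgam and Itgax, which reached 135 and 64.1 CPM. The natural killer, erythroid and megakaryocyte sums were at most 15.5, 65.5 and 14.3 CPM, and the stromal and endothelial sum was 18.5 to 304 CPM, of which Pecam1 gave up to 295. The part of such cells, or of a changing mix of B cells within a gate, in the results was not tested, and in bulk libraries fewer cells expressing a gene and less RNA per cell cannot be told apart.

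Expression is given on 2 scales. Relative to all genes, a member's value is in CPM, its reads scaled to the library's tested reads times a TMM factor, edgeR's correction for library composition. The TMM factors of hosts 196 and 197 were 1.013 and 1.021 in Div8neg and 0.9455 and 0.963 in Div8pos. The marker and Xist CPM above were scaled to library reads without TMM. A gene's change in share is a change on the TMM scale and can differ from that in its part of all reads. Family shares in percent are parts of summed mRNAs per cell, without TMM. Per cell, a value is the authors' estimate of mRNA molecules in 1 cell, made with the spike-ins, so a gene can lose share while its molecules increase. All genes of a library share 1 spike-in factor, so per-cell values of a library move together. Paired values are given for host 196 and then host 197. Statements that the libraries of 2 groups did not overlap describe these values alone. The share of all genes whose libraries separate in this way is not given. A gene was called changed at an adjusted p under 0.05, over 12026 tested genes. Relative tests used edgeR's quasi-likelihood test, and per-cell tests used limma on log2(mRNAs per cell + 0.1). The limma fit pools the spread over genes as if they varied independently, although each library's genes share 1 spike-in factor. Its smallest per-cell p-values therefore overstate what 2 libraries per group can show.

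Summed over all 66 genes, the enzymes had 109.5 and 129 mRNAs per cell in Div0, 162 and 233 in Div1, 166 and 203 in Div3, 271 and 241 in Div5, 337 and 362 in Div8neg, and 523 and 441 in Div8pos. The Div8pos libraries lay above every other library. All mRNA grew more than this sum, so the share of the enzymes in cellular mRNA was 0.392% in Div0, 0.349% in Div8neg and 0.295% in Div8pos.

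The families differed in this respect. Prmt mRNA made up 0.0394% of the total in Div0, 0.0635% in Div8neg and 0.0737% in Div8pos. Kmt2 mRNA went the other way, with 0.0422%, 0.0242% and 0.0168%. The Setd share stayed between 0.0482% and 0.0568% in all 6 groups. The Setd, Kdm, Hdac, Sirt and Kat shares were each lowest in Div8pos, at 0.0482%, 0.0481%, 0.0576%, 0.0242% and 0.0265%. The Div8neg to Div0 ratio of summed molecules was 5.34 ± 0.673 for Prmt and 1.9 ± 0.0219 for Kmt2, against 3.31 ± 0.318 for all genes (SD over 2 hosts). With 2 libraries per group no exact test of such a sum can reach 0.05, so these sums are descriptions.

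**Figure D1:**
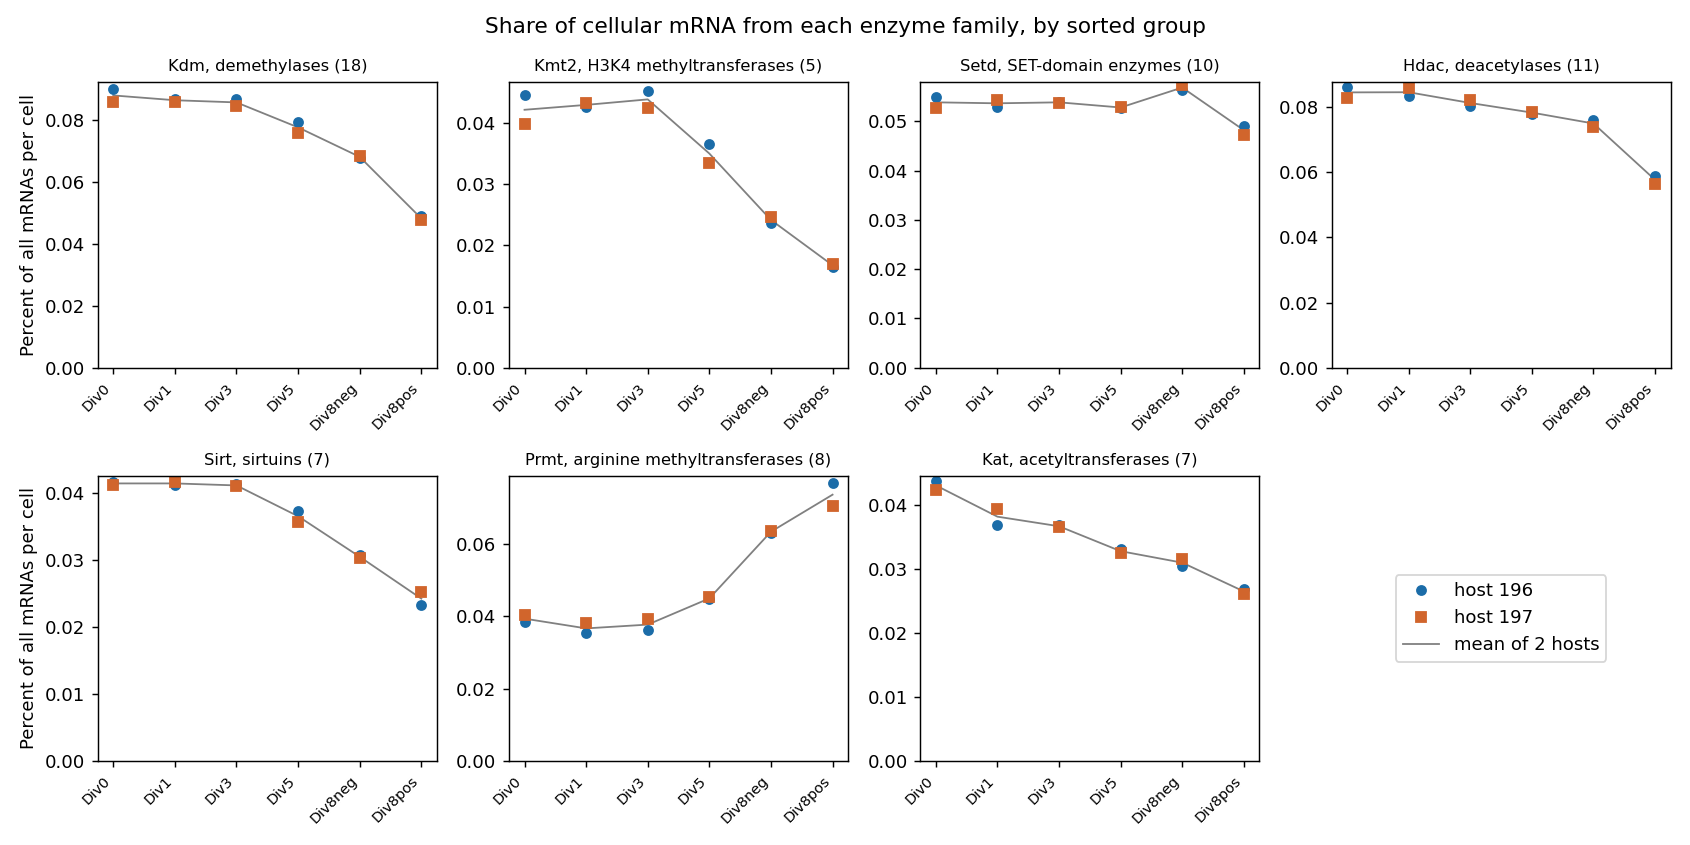
Share of cellular mRNA from each enzyme family (percent of all mRNAs per cell) in the 6 sorted groups. Points are the 2 hosts, and grey lines join group means in the order shown. Prmt is the family whose share is above its Div0 level in Div8pos (0.0737% against 0.0394%), and Kmt2 drops to 0.0168%.

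Per cell, 60 of 65 members rose from Div0 to Div1 and 0 fell, at a background of 77.1% of all tested genes called (77% higher, 0.133% lower). The members' median log2 change was 0.65, and that of all genes 0.63. Relative to all genes, 0 members rose and 3 fell, Kdm6b, Hdac5 and Kat6a, at a background of 9.35% (5.44% higher, 3.91% lower). The host-blocked edgeR fit called 7, adding Kmt2a as higher and Kmt2e, Hdac10 and Kat8 as lower. The per-cell count rested on single libraries, since it was 2 when the Div0 library of host 196 was left out and also 2 when the Div1 library of host 197 was. The relative count was 1 without Div1 of host 196. At an unadjusted p under 0.05, edgeR gave 6 members higher and 10 lower in share, and limma gave 0 lower per cell. The largest per-cell rises were Hdac11 (0.93, adjusted p = 0.000346), Kmt2a (0.90, adjusted p = 0.00141), Setd8 (0.86, adjusted p = 0.00214), Hdac3 (0.86, adjusted p = 0.00216), Sirt6 (0.83, adjusted p = 0.00252) and Kdm2b (0.83, adjusted p = 0.00267).

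From Div1 to Div3 few enzymes passed the test. Relative to all genes only Kdm6b fell, 1 of 65, at a background of 3.42% (1.51% lower). The host-blocked fit called 3, adding Kmt2b as higher and Hdac7 as lower. Per cell, limma called 0 of 65 at a background of 0.516%, and edgeR on spike-in-scaled counts also called 0. At an unadjusted p under 0.05 limma gave 1 member, which was lower.

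Between Div3 and Div5, 5 members rose and 21 fell relative to all genes, at a background of 26.6% (14.2% higher, 12.4% lower). Per cell, 20 members rose and 0 fell, at a background of 43.2% (42.7% higher, 0.416% lower). None of the 21 that fell in share was called per cell, which does not show that their molecules stayed the same. The largest per-cell rises were Prmt1 (0.92, adjusted p = 0.0019), Prmt5 (0.81, adjusted p = 0.00535), Prmt7 (0.78, adjusted p = 0.00645), Setd8 (0.75, adjusted p = 0.00849), Setdb2 (0.71, adjusted p = 0.0105) and Hdac3 (0.64, adjusted p = 0.0201). The relative count was 9 without Div3 of host 196 or Div5 of host 197 and 16 without Div5 of host 196. The per-cell count was 0 without Div3 or Div5 of host 196, 6 without Div5 of host 197, 12 without either Div8neg library and 36 without either Div1 library.

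From Div5 to Div8neg, 12 members rose and 28 fell relative to all genes, at a background of 53.4% (26.9% higher, 26.6% lower). Per cell, 20 rose and 2 fell, Hdac11 and Prmt2, at a background of 45.8% (42.3% higher, 3.56% lower), against 33.8% of members. The largest per-cell rises were Prmt1 (1.12, adjusted p = 6.38e-05), Prmt5 (1.00, adjusted p = 0.000266), Setd8 (0.94, adjusted p = 0.000536), Hdac2 (0.88, adjusted p = 0.00112), Setdb1 (0.86, adjusted p = 0.00137) and Prmt7 (0.85, adjusted p = 0.00159). The per-cell count of 22 was 8 and 12 without Div8neg of host 197 and 196, and 11 and 14 without Div5 of host 197 and 196.

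Over the whole path from Div0 to Div8neg, 13 members rose and 38 fell relative to all genes, with a median log2 change of -0.28. The background was 71% (35.3% higher, 35.7% lower), and the median of all genes was -0.011. Per cell, 59 of 65 rose and 1, Hdac11, fell, at a background of 90% (88.4% higher, 1.65% lower). The per-cell median was 1.31 for the members and 1.41 for all genes. Of the 38 members with a smaller share, 32 had more molecules per cell, 5 (Kdm4d, Kdm5b, Kmt2c, Sirt5 and Prmt2) were not called per cell, and Hdac11 had fewer. All 13 that gained share also rose per cell, led by Prmt1 (2.62, adjusted p = 4.89e-19), Setd8 (2.55, adjusted p = 9.18e-19), Prmt5 (2.49, adjusted p = 4.75e-18), Prmt7 (2.18, adjusted p = 2.37e-15), Setdb1 (2.12, adjusted p = 5.33e-15) and Hdac2 (2.05, adjusted p = 2.15e-14).

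From Div8neg to Div8pos, 13 members rose and 32 fell relative to all genes, at a background of 72% (36.6% higher, 35.4% lower). The 69.2% of members called was near that share. The median log2 change was -0.17 for the members and 0.012 for all genes. Per cell, 30 rose and 4 fell, at a background of 68.4% (52.1% higher, 16.3% lower), against 52.3% of members. The per-cell medians were 0.36 and 0.49. All 13 that gained share also rose per cell, and of the 32 that lost share, 4 (Setd2, Kdm4a, Setd4 and Kdm3b) fell per cell and 28 were not called. The largest per-cell rises were Prmt7 (1.23, adjusted p = 1.63e-06), Sirt1 (1.08, adjusted p = 1.11e-05), Kdm8 (1.07, adjusted p = 2.87e-05), Kat2b (1.04, adjusted p = 2.61e-05), Hdac7 (1.00, adjusted p = 6.18e-05) and Kdm6a (0.99, adjusted p = 6.84e-05). The per-cell count of 34 was 16 without Div8pos of host 196 and 17 without Div8neg of host 196. These comparisons share libraries (every group but Div8pos enters more than 1), so their counts are not independent of one another.

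**Figure D2:**
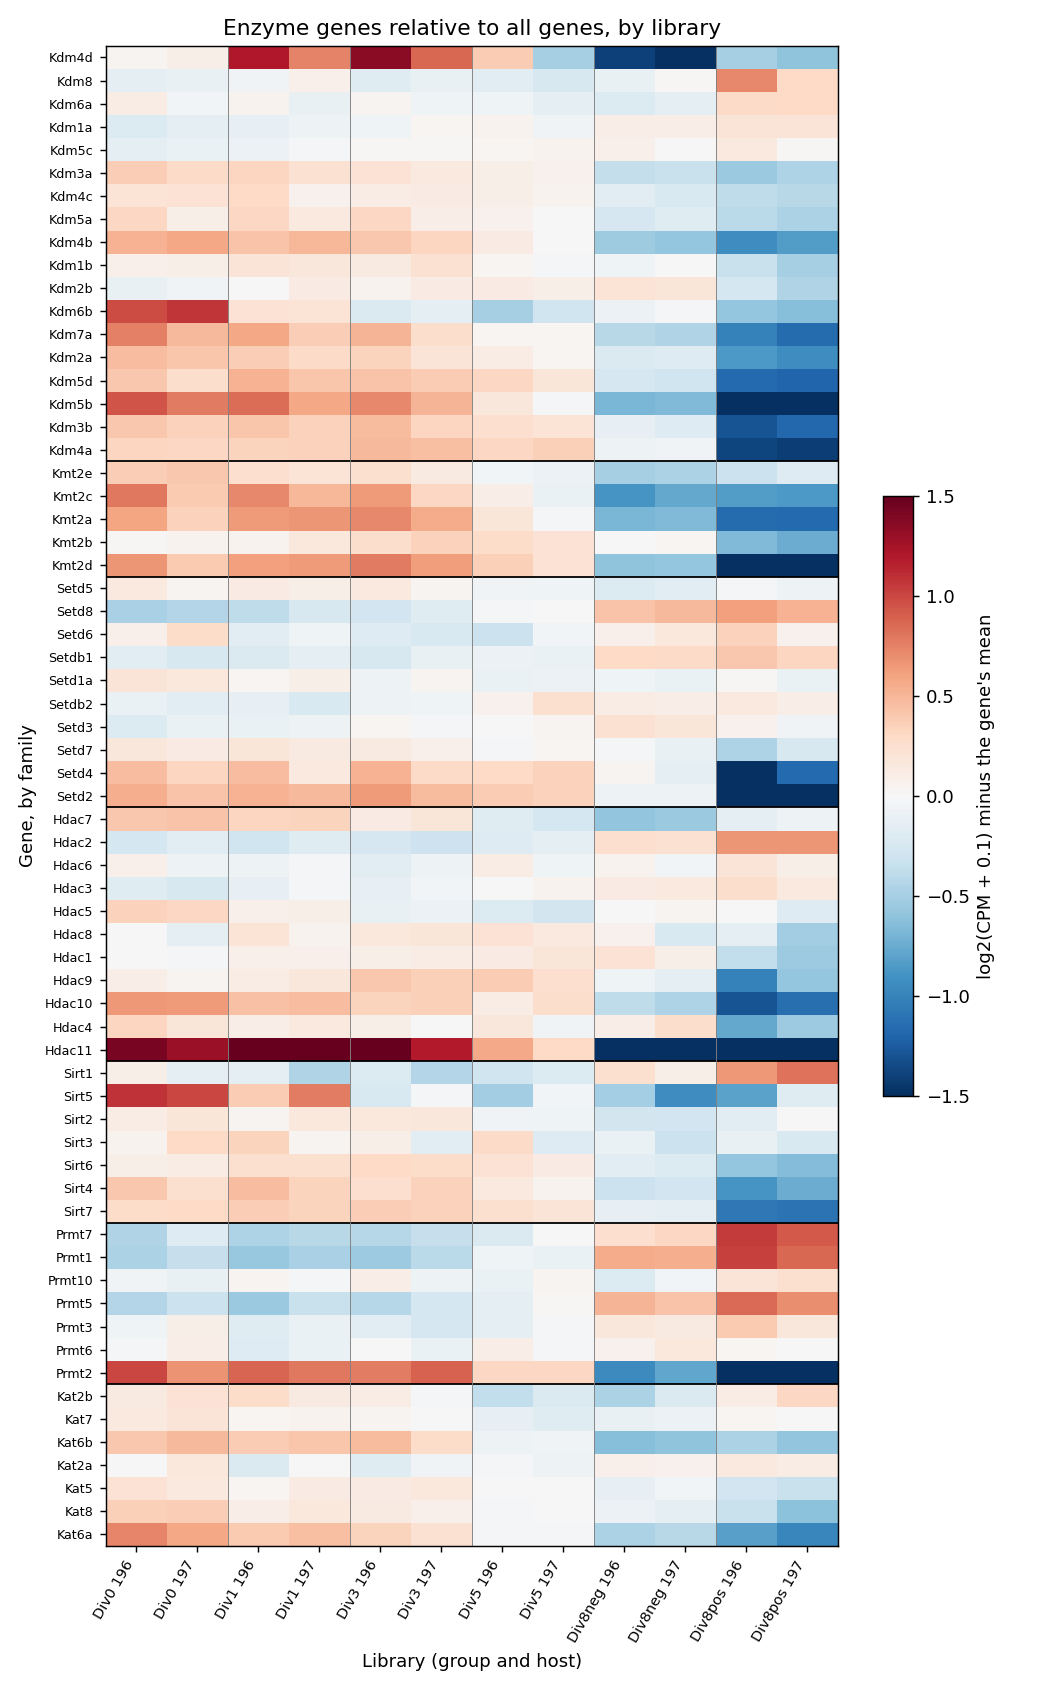
Expression of the 65 tested enzyme genes relative to all genes in the 12 libraries, as log2(CPM + 0.1) minus each gene's mean over the libraries (colour scale limited to -1.5 and 1.5). Rows are grouped by family and ordered within a family by the change from Div8neg to Div8pos. Prmt1, Prmt5 and Prmt7 turn red towards Div8pos, and Setd2, Kdm4a, Kmt2d and Kdm5b turn blue.

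**Figure D3:**
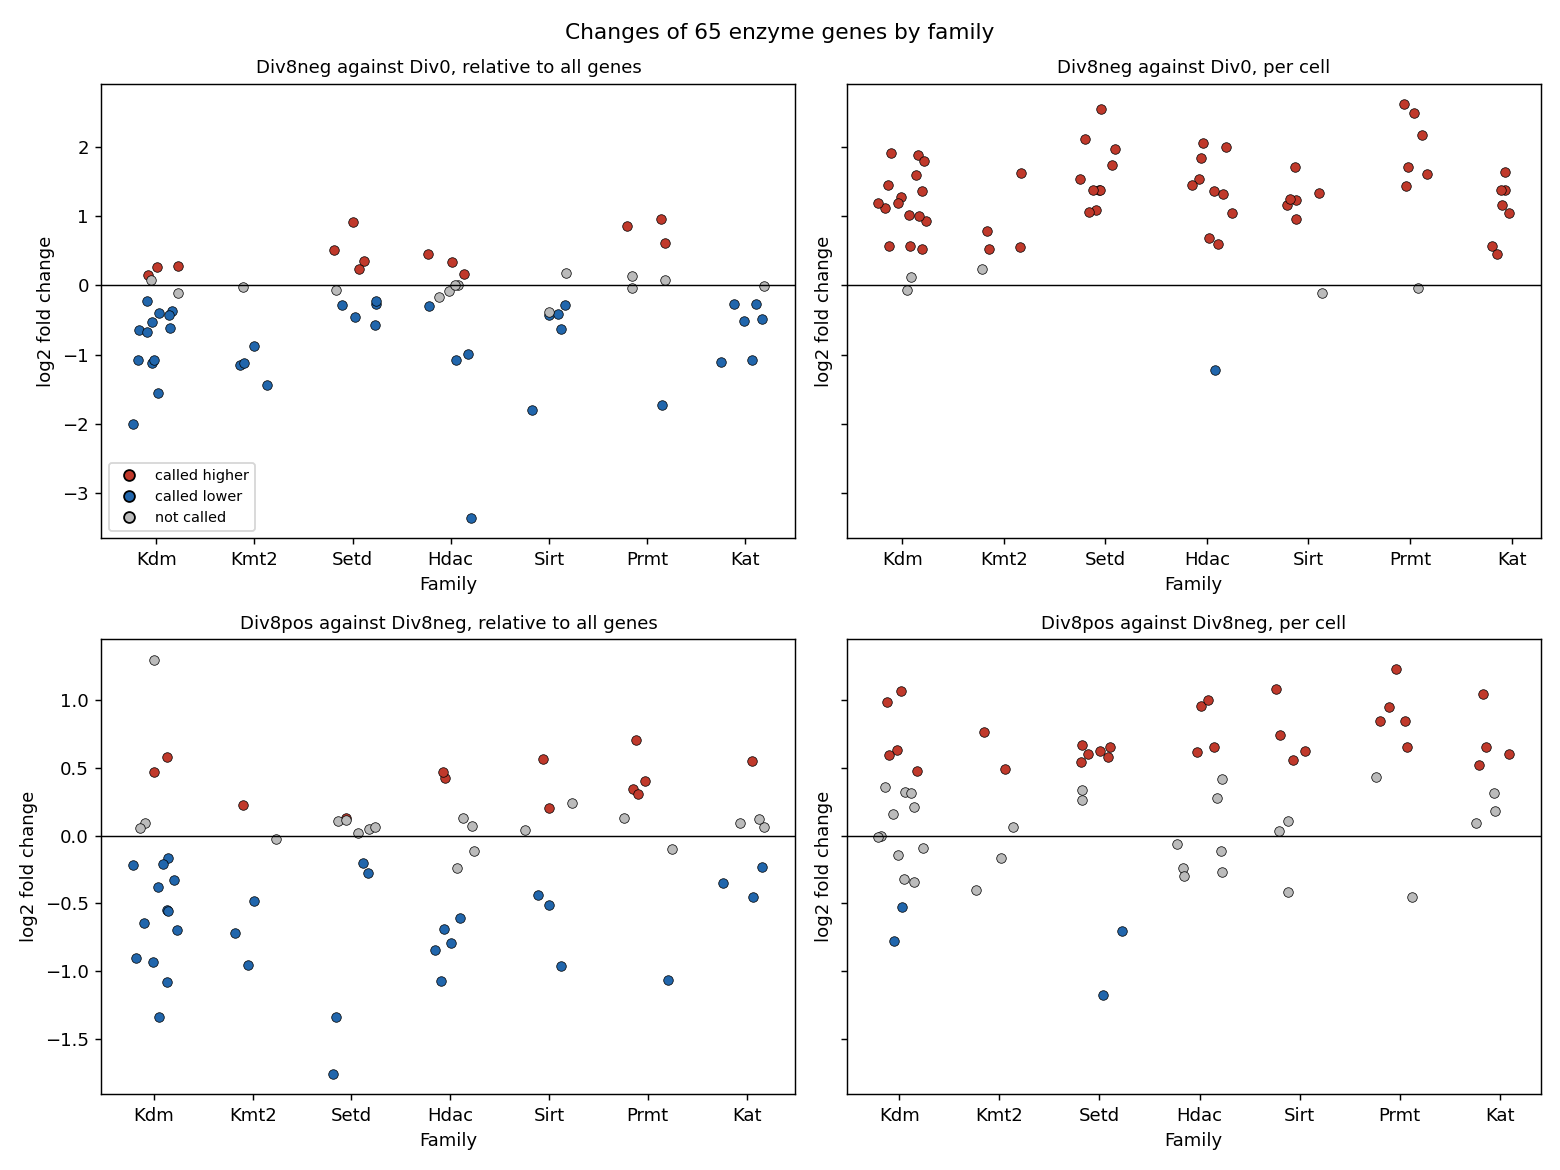
Log2 fold changes of the 65 tested members by family, Div8neg against Div0 (upper row) and Div8pos against Div8neg (lower row), relative to all genes (left) and per cell (right). Red and blue points are members called higher and lower, and grey points were not called. In the upper row 38 points are blue on the left and 1 on the right. Of all tested genes, 35.7% and 1.65% were called lower on these scales.

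Promoters of 6 members are shown because these genes moved apart: Prmt1, Prmt5 and Prmt7 gained share by Div8pos, and Setd2, Kmt2d and Kdm4a lost it. They were chosen after their values were seen. Each runs 5′ to 3′ from 250 bases before to 50 bases after a RefSeq start site (GRCm38.p6), with any searched motif in capitals. The positions are chr7:44986371-44986670 (minus strand), chr14:54517421-54517720 (minus strand), chr8:106210804-106211103 (plus strand), chr9:110532347-110532646 (plus strand), chr15:98871156-98871455 (minus strand) and chr4:118179994-118180293 (minus strand), in the order printed.
Prmt1 promoter: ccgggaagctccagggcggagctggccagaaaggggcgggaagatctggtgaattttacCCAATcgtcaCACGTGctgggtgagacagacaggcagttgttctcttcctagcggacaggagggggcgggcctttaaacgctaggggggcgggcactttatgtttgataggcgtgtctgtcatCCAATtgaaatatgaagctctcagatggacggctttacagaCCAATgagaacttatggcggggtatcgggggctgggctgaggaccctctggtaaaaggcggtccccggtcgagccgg
Prmt5 promoter: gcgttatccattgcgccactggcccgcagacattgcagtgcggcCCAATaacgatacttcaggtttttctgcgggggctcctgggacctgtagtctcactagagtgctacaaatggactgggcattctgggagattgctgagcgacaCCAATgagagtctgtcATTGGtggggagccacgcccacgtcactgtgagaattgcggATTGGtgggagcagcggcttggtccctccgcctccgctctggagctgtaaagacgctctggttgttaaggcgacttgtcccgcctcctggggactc
Prmt7 promoter: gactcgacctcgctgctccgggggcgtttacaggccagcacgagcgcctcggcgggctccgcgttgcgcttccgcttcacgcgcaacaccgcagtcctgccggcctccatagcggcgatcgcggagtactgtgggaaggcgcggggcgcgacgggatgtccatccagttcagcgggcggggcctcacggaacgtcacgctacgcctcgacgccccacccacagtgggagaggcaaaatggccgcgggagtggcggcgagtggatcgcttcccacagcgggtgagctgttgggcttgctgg
Setd2 promoter: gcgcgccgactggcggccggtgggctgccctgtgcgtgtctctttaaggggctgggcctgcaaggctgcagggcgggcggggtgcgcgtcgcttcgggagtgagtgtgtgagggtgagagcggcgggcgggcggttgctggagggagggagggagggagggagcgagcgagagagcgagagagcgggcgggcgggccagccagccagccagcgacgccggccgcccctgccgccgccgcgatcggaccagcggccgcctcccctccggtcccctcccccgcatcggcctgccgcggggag
Kmt2d promoter: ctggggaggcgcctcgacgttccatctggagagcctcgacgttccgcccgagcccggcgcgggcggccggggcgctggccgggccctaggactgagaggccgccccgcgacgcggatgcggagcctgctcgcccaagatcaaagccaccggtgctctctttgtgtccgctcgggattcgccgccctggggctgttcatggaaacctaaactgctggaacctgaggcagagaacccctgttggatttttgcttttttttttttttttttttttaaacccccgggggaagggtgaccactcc
Kdm4a promoter: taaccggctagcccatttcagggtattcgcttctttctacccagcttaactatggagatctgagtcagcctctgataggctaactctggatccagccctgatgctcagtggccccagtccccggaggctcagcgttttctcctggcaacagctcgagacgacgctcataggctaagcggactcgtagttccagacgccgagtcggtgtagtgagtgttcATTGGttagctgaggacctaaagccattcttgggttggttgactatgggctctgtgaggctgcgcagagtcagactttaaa

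The letters searched, on both strands, were CCAAT (NF-Y), CACGTG (E-box), TTTCGCGC (E2F), ACTTCCGGT (ETS) and a BLIMP1 motif. No motif overlaps another in these 6 promoters. CCAAT was found in Prmt1, Prmt5 and Kdm4a and not in Prmt7, Setd2 or Kmt2d, so it did not divide the genes that gained share from those that lost it. CACGTG was found in Prmt1 alone of the 6.

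RefSeq promoter entries existed for 55 of the 66 members. CCAAT was in a promoter of 50.9% of these 55 genes and of 41.1% of all 27025 genes in the table. A gene counted if any of its entries matched, so genes with more entries had more chances to match. Counted by entry, CCAAT was in 44.0% of the members' 75 and 37.4% of all 32851. It was in 9 of 11 members that rose from Div0 to Div8neg relative to all genes (81.8%) and in 13 of 30 that fell (43.3%). By entry these shares were 76.5% of 17 and 34.1% of 41. Between Div8neg and Div8pos CCAAT was in 41.7% of the members that rose and 43.5% of those that fell. CACGTG was in 12.7% of members and 8.09% of all genes, ACTTCCGGT in 1.82% and 1.21%, and the E2F and BLIMP1 letters in 0 members and in 0.374% and 0.107% of all genes. CACGTG was in 9.09% of the members that rose from Div0 to Div8neg and 13.3% of those that fell, and in 3 of 12 that rose with CD138 and 2 of 23 that fell. The 1 member with ACTTCCGGT was Setd4, which fell in both. These shares come from 5 motifs in 5 sets of members, and a match describes letters and not a bound site.

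Prmt genes methylate arginine. Prmt1, Prmt5 and Prmt7 rose and Prmt2 fell in share from Div3 to Div5 (of 7 tested). Prmt1, Prmt3, Prmt5 and Prmt7 rose and Prmt2 fell in share from Div5 to Div8neg (of 7 tested). Prmt1, Prmt5 and Prmt7 rose and Prmt2 fell in share from Div0 to Div8neg (of 7 tested). Prmt1, Prmt10, Prmt5 and Prmt7 rose and Prmt2 fell in share from Div8neg to Div8pos (of 7 tested). In that order, 57.1%, 71.4%, 57.1% and 71.4% of tested Prmt genes were called, against 26.6%, 53.4%, 71% and 72% of all genes. Prmt1, the main enzyme of asymmetric arginine dimethylation, was at 111 and 122 CPM in Div0, 104 and 109.6 in Div1, 106 and 116 in Div3, 147 and 143 in Div5, 226 and 224 in Div8neg, and 314 and 280.3 in Div8pos. Every Div8neg library lay above every Div5 library, and every Div8pos library above every Div8neg library. It rose from Div3 to Div5 (log2 change 0.38, SE 0.07, adjusted p = 0.00121), from Div5 to Div8neg (log2 change 0.64, SE 0.068, adjusted p = 2.14e-06) and from Div8neg to Div8pos (log2 change 0.40, SE 0.066, adjusted p = 5.14e-05). From Div0 to Div8neg its log2 change was 0.95 (adjusted p = 6.42e-09).

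In molecules, Prmt1 had 5.14 and 6.73 mRNAs per cell in Div0, 7.39 and 11 in Div1, 7.57 and 10.3 in Div3, 18 and 15.7 in Div5, 35.2 and 38 in Div8neg, and 79.2 and 62.8 in Div8pos, the most of any member in Div8pos. The per-cell log2 change was 2.62 from Div0 to Div8neg and 0.94 from Div8neg to Div8pos (limma, adjusted p = 4.89e-19 and 0.00021). Both per-cell calls held in every alternative fit run.

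Prmt5, the main enzyme of symmetric arginine dimethylation, was at 83.8 and 91 CPM in Div0, 77.3 and 90.3 in Div1, 85.1 and 95.2 in Div3, 104 and 115 in Div5, 162 and 154 in Div8neg, and 205 and 185 in Div8pos. Both Div8pos libraries exceeded both Div8neg libraries, which exceeded all libraries of fewer divisions. It rose from Div0 to Div8neg (log2 change 0.85, SE 0.084, adjusted p = 2.22e-07) and again with CD138 (log2 change 0.31, SE 0.081, adjusted p = 0.003). It also rose from Div3 to Div5 (0.28, adjusted p = 0.0252) and from Div5 to Div8neg (0.53, adjusted p = 7.19e-05). The Div5 call was lost without Div3 of host 196 (adjusted p = 0.193) or Div5 of host 197 (0.235).

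Prmt7, which forms monomethylarginine, was at 45.7 and 54.6 CPM in Div0, 45.6 and 46.8 in Div1, 46.4 and 49.1 in Div3, 54 and 62.4 in Div5, 74.6 and 78 in Div8neg, and 129 and 119 in Div8pos. The Div8pos libraries stood clear of the others. It had the largest gain in share of the named members with CD138 (log2 change 0.70, SE 0.081, adjusted p = 1.05e-06), and also rose from Div5 to Div8neg (0.39, adjusted p = 0.00118), and from Div0 to Div8neg (0.61, adjusted p = 1.25e-05). Its rise from Div3 to Div5 (0.28, adjusted p = 0.0282) was lost without Div3 of host 196 (0.155) or Div5 of host 197 (0.297). Its molecules were 0.788 and 1.12 mRNAs per cell in Div0, 4.32 and 4.9 in Div8neg, and 12.1 and 9.87 in Div8pos.

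The other Prmt genes did not follow as a set. Prmt2, a coactivator-type enzyme with weak activity, fell from 17.6 and 13.9 CPM in Div0 to 4.47 and 5.05 in Div8neg (log2 change -1.74, SE 0.17, adjusted p = 2.15e-07), and to 1.68 and 2.91 in Div8pos (-1.06, adjusted p = 0.00105). It also fell in share from Div3 to Div5 (-0.52, adjusted p = 0.0186) and from Div5 to Div8neg (-1.19, adjusted p = 5.09e-05). Its molecules fell from 0.963 and 0.857 per cell in Div5 to 0.502 and 0.617 in Div8neg (limma, log2 change -0.62, SE 0.22, adjusted p = 0.0158), a call lost without a filter (adjusted p = 0.0723) and without either Div5 library or Div8neg of host 196 (0.0513 to 0.165). Prmt10, now called Prmt9, rose with CD138 from 27.4 and 30.7 to 36.2 and 37.4 CPM (adjusted p = 0.00252). Prmt3, a ribosomal protein methyltransferase, rose from 48 and 51.8 CPM in Div5 to 59.6 and 58.3 in Div8neg (adjusted p = 0.0217), which was lost under DESeq2 (0.0767) and without Div5 of host 196 or either Div8neg library (0.0596 to 0.165). Prmt6 was called in share in none of the 6 comparisons, and had 0.542 and 0.707 mRNAs per cell in Div0 and 3.05 and 2.66 in Div8pos.

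Kmt2 genes encode large methyltransferases for histone H3 lysine 4, although such activity is not established for Kmt2e. Kmt2a, Kmt2c, Kmt2d and Kmt2e fell in share from Div3 to Div5 (of 5 tested). Kmt2a, Kmt2b, Kmt2c, Kmt2d and Kmt2e fell in share from Div5 to Div8neg (of 5 tested). Kmt2a, Kmt2c, Kmt2d and Kmt2e fell in share from Div0 to Div8neg (of 5 tested). Kmt2e rose and Kmt2a, Kmt2b and Kmt2d fell in share from Div8neg to Div8pos (of 5 tested). In that order, 80%, 100%, 80% and 80% of tested Kmt2 genes were called, against 26.6%, 53.4%, 71% and 72% of all genes. Kmt2d, an enhancer monomethyltransferase, was at 784 and 653 CPM in Div0, 759.8 and 774 in Div1, 856 and 766 in Div3, 636 and 578 in Div5, 327 and 333 in Div8neg, and 173 and 167 in Div8pos. Both Div8neg libraries were below every earlier library, and both Div8pos libraries below those. It fell from Div5 to Div8neg (log2 change -0.88, SE 0.078, adjusted p = 3.18e-07) and from Div8neg to Div8pos (log2 change -0.96, SE 0.081, adjusted p = 2.58e-08), and from Div0 to Div8neg (log2 change -1.12, adjusted p = 3.8e-09).

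Per cell, Kmt2d had 2.92 and 2.9 mRNAs per cell in Div0, 4.32 and 6.23 in Div1, 4.92 and 5.44 in Div3, 6.27 and 5.1 in Div5, 4.1 and 4.53 in Div8neg, and 3.5 and 3 in Div8pos. Per cell it rose from Div0 to Div8neg (0.55, limma adjusted p = 0.0174), opposite to its change in share, a call lost without either Div0 library (adjusted p = 0.0613 and 0.0661) or Div8neg of host 197 (0.126). From Div8neg to Div8pos the per-cell change was -0.40 (adjusted p = 0.103) and was not called.

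Kmt2a (MLL1), which maintains active genes, was at 562 and 472 CPM in Div0, 581 and 590.4 in Div1, 612 and 546 in Div3, 421 and 368 in Div5, 231 and 236 in Div8neg, and 168 and 166 in Div8pos. The Div8neg and Div8pos values lay below all earlier ones. It fell from Div3 to Div5 (log2 change -0.55, SE 0.079, adjusted p = 0.000201), from Div5 to Div8neg (log2 change -0.76, SE 0.081, adjusted p = 2.04e-06) and from Div0 to Div8neg (-1.15, adjusted p = 4.75e-09, against a per-cell rise of 0.52 that was lost without any 1 of the 4 Div0 and Div8neg libraries). Its Div8pos change was -0.48 (adjusted p = 7.88e-05). In molecules it stood at 2.5 and 2.5 mRNAs per cell in Div0, 3.95 and 5.68 in Div1, 3.46 and 3.84 in Div8neg, and 4.05 and 3.57 in Div8pos, and the Div1 rise over Div0 (limma, 0.90, adjusted p = 0.00141) was 1 of only 2 members' calls that held in every alternative for that step, with Hdac11.

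Kmt2c, the relative of Kmt2d, was at 273 and 208 CPM in Div0, 246 and 196 in Div3, 169 and 148 in Div5, 85.1 and 92.7 in Div8neg and 88.2 and 86.7 in Div8pos. It fell from Div0 to Div8neg (log2 change -1.44, SE 0.13, adjusted p = 5.31e-08), from Div3 to Div5 (-0.48, adjusted p = 0.00936, lost without Div3 of host 196, 0.13, or Div5 of host 197, 0.118) and from Div5 to Div8neg (-0.83, adjusted p = 5.5e-05), and did not pass the test in share with CD138 (-0.023, adjusted p = 0.882). Per cell Kmt2c rose with CD138 (limma, 0.49, adjusted p = 0.045), a call lost without any 1 of the Div0, Div5, Div8neg and Div8pos libraries (0.0595 to 0.283). Kmt2b, related to Kmt2a, fell with CD138 from 288 and 294 to 182 and 172 CPM (-0.72, adjusted p = 1.25e-08), and was not called in share from Div0 to Div8neg (-0.021, adjusted p = 0.742). Per cell Kmt2b rose from 2.53 and 3.1 in Div0 to 8.41 and 9.32 in Div8neg (limma, 1.63, adjusted p = 2.03e-10). Kmt2e, for which a methyltransferase activity is not established, went from 387 and 396 CPM in Div0 to 211 and 215 in Div8neg (adjusted p = 1.77e-09, with a per-cell rise of 0.79) and was 238 and 261 in Div8pos (adjusted p = 0.00217), the 1 Kmt2 gene that gained share with CD138.

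Setd genes encode methyltransferases with a SET domain. Setd8 and Setdb2 rose and Setd2 and Setd5 fell in share from Div3 to Div5 (of 10 tested). Setd3, Setd6, Setd8 and Setdb1 rose and Setd2 fell in share from Div5 to Div8neg (of 10 tested). Setd3, Setd8, Setdb1 and Setdb2 rose and Setd1a, Setd2, Setd4, Setd5 and Setd7 fell in share from Div0 to Div8neg (of 10 tested). Setd5 rose and Setd2, Setd3, Setd4 and Setd7 fell in share from Div8neg to Div8pos (of 10 tested). In that order, 40%, 50%, 90% and 50% of tested Setd genes were called, against 26.6%, 53.4%, 71% and 72% of all genes. From Div8neg to Div8pos Setd5 went from 227 and 233 to 256 and 248 CPM on the TMM scale. Its reads were 3252 of 14157901 and 3044 of 12813565 in Div8neg, and 3197 of 13226526 and 2815 of 11793297 in Div8pos. Setd2, which writes the trimethyl mark of histone H3 lysine 36 behind RNA polymerase, was at 337 and 310.5 CPM in Div0, 329 and 322 in Div1, 359 and 319 in Div3, 300.1 and 294 in Div5, 218 and 218 in Div8neg, and 64.4 and 64.7 in Div8pos. The 2 Div8pos libraries were far below all 10 others, which ranged from 218 to 359 CPM. Its fall with CD138 was the largest in share among the named members (log2 change -1.75, SE 0.067, adjusted p = 1.32e-12). It had 5.77 and 5.05 mRNAs per cell in Div5, 5.31 and 5.79 in Div8neg, and 2.54 and 2.27 in Div8pos, so molecules fell as well (limma, log2 change -1.18, SE 0.22, adjusted p = 2.69e-06). Both calls held in every alternative. From Div0 to Div8neg its share fell by 0.57 on the log2 scale (adjusted p = 4.56e-07) while its molecules rose by 1.08.

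Setd4 fell with CD138 too, from 10.3 and 9.02 to 3.28 and 4.4 CPM (log2 change -1.34, SE 0.19, adjusted p = 9.83e-06), and from 1.05 and 0.994 to 0.537 and 0.641 mRNAs per cell (limma adjusted p = 0.00255), where the per-cell call was lost without Div8pos of host 196 (0.0603). Setd3, which methylates a histidine of actin, rose from 80 and 86.3 CPM in Div0 to 108 and 105 in Div8neg (adjusted p = 8.17e-05) and fell to 96.5 and 88.6 in Div8pos (adjusted p = 0.00777), the latter lost under DESeq2 (0.062) and without Div8neg of host 196 (0.0599) or Div8pos of host 197 (0.0839).

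Setd8 (now Kmt5a), which writes the monomethyl mark of histone H4 lysine 20 during the cell cycle, was at 89.1 and 91.9 CPM in Div0, 95.7 and 106 in Div1, 102 and 110.2 in Div3, 122 and 125 in Div5, 167 and 174 in Div8neg, and 190.3 and 179 in Div8pos. The Div8neg and Div8pos libraries did not overlap Div5 or below. It rose from Div3 to Div5 (0.22, adjusted p = 0.0202), from Div5 to Div8neg (log2 change 0.47, SE 0.062, adjusted p = 1.66e-05) and from Div0 to Div8neg (log2 change 0.91, SE 0.064, adjusted p = 4.06e-09), but was not called in share with CD138 (0.11, adjusted p = 0.105). Per cell Setd8 rose with CD138 (limma, 0.66, adjusted p = 0.00819), a call lost without Div8neg or Div8pos of host 196 (0.0982 and 0.111). The Div5 call was lost without Div3 of host 196 (adjusted p = 0.166), Div5 of host 196 (0.0568) or Div5 of host 197 (0.133).

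Setdb1, which writes histone H3 lysine 9 methylation with zinc-finger repressors, was at 107 and 102 CPM in Div0, 104 and 109 in Div1, 103 and 112 in Div3, 114 and 113 in Div5, 149 and 148 in Div8neg, and 160.2 and 151 in Div8pos. It rose from Div0 to Div8neg (log2 change 0.51, SE 0.059, adjusted p = 1.47e-06) and from Div5 to Div8neg (0.39, adjusted p = 5.05e-05). Setdb2, a relative, rose from 38.5 and 38.7 CPM in Div3 to 42.6 and 48 in Div5 (0.23, adjusted p = 0.0322), a call lost under DESeq2 (0.122) and without single libraries. Setd1a, Setd5 and Setd7, which fell in share from Div0 to Div8neg, rose per cell (1.38, 1.37 and 1.38), and the fall of Setd7 was lost without Div0 of host 196 (0.0568) or Div8neg of host 197 (0.0719). The rise of Setd6 from Div5 to Div8neg was lost under DESeq2 (0.137) and in 3 of the single-library omissions (0.0774 to 0.372). Of these genes, Setd1a shares 53.3% of its exon bases with another gene on the same strand in GENCODE M21, so its reads are uncertain.

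Kdm genes encode the lysine demethylases. Kdm2a, Kdm4a, Kdm4b, Kdm4d, Kdm5b, Kdm6b and Kdm7a fell in share from Div3 to Div5 (of 18 tested). Kdm6b rose and Kdm2a, Kdm3a, Kdm3b, Kdm4a, Kdm4b, Kdm4c, Kdm4d, Kdm5a, Kdm5b, Kdm5d and Kdm7a fell in share from Div5 to Div8neg (of 18 tested). Kdm1a, Kdm2b and Kdm5c rose and Kdm2a, Kdm3a, Kdm3b, Kdm4a, Kdm4b, Kdm4c, Kdm4d, Kdm5a, Kdm5b, Kdm5d, Kdm6a, Kdm6b and Kdm7a fell in share from Div0 to Div8neg (of 18 tested). Kdm6a and Kdm8 rose and Kdm1b, Kdm2a, Kdm2b, Kdm3a, Kdm3b, Kdm4a, Kdm4b, Kdm4c, Kdm5a, Kdm5b, Kdm5d, Kdm6b and Kdm7a fell in share from Div8neg to Div8pos (of 18 tested). In that order, 38.9%, 66.7%, 88.9% and 83.3% of tested Kdm genes were called, against 26.6%, 53.4%, 71% and 72% of all genes. Kdm6b (JMJD3), which removes methyl groups from histone H3 lysine 27, was at 102 and 109 CPM in Div0, 60.2 and 59.6 in Div1, 44.3 and 46.7 in Div3, 36.6 and 41.8 in Div5, 48.6 and 51.2 in Div8neg, and 34.6 and 33.2 in Div8pos. It was the only member to fall in share both from Div0 to Div1 (log2 change -0.81, SE 0.068, adjusted p = 2.5e-06) and from Div1 to Div3 (log2 change -0.39, SE 0.073, adjusted p = 0.00623). The Div0 libraries lay above all others. Both calls held in every alternative. From Div0 to Div8neg its share fell by 1.07 on the log2 scale while its molecules rose by 0.57, the latter lost without Div0 of host 196 (0.179) or Div8neg of host 197 (0.125). It rose from Div5 to Div8neg (0.35, adjusted p = 0.00122) and fell with CD138 (-0.56, adjusted p = 9.83e-06). Its molecules were 1.03 and 1.31 mRNAs per cell in Div0, 0.93 and 1.3 in Div1, 1.66 and 1.89 in Div8neg, and 1.9 and 1.62 in Div8pos, and Kdm6b was 1 of 5 members not called per cell from Div0 to Div1.

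Its X-linked relative Kdm6a (UTX) was at 65.5 and 58.8 CPM in Div0, 62.6 and 56.1 in Div1, 62.1 and 58.1 in Div3, 57.7 and 55.1 in Div5, 52.3 and 54.7 in Div8neg, and 73.7 and 74.7 in Div8pos. It rose with CD138 (log2 change 0.47, SE 0.074, adjusted p = 3.02e-05), with no overlap of the 2 groups. Kdm6a had 2.06 and 2.34 mRNAs per cell in Div8neg and 4.69 and 4.23 in Div8pos (limma, 0.99, adjusted p = 6.84e-05). Kdm8, a jumonji hydroxylase, also rose, from 17 and 18.5 to 30.2 and 22.6 CPM (log2 change 0.58, SE 0.12, adjusted p = 0.000448).

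Kdm4a, which demethylates histone H3 at lysines 9 and 36, was at 206 and 204 CPM in Div0, 208 and 209 in Div1, 231 and 226 in Div3, 205 and 210.5 in Div5, 157 and 159 in Div8neg, and 63.2 and 61.9 in Div8pos. The Div8pos libraries were the lowest by far. It fell with CD138 in share (log2 change -1.34, SE 0.054, adjusted p = 2.65e-12) and in molecules, from 7.84 and 8.65 to 5.1 and 4.45 per cell (limma, log2 change -0.78, SE 0.22, adjusted p = 0.00157). Kdm3b, a demethylase of lysine 9, fell in the same step from 218 and 207 to 96.5 and 104 CPM (log2 change -1.08, SE 0.067, adjusted p = 5.03e-10) and per cell (-0.53, limma adjusted p = 0.0297), where each single-library omission within the 2 groups lost the call (0.0941 to 0.137).

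Kdm5b, a demethylase of histone H3 lysine 4, was at 52.2 and 46.7 CPM in Div0, 48.5 and 40.7 in Div1, 44.8 and 38.6 in Div3, 30.5 and 26.9 in Div5, 16.8 and 17.1 in Div8neg, and 8.72 and 9.07 in Div8pos. It fell at each step from Div3 to Div8pos, from Div3 to Div5 (-0.53, adjusted p = 0.00179), from Div5 to Div8neg (-0.76, adjusted p = 5.97e-05) and to Div8pos (-0.93, adjusted p = 2.86e-05), and by 2.92-fold from Div0 to Div8neg (log2 change -1.55, SE 0.11, adjusted p = 5.25e-09). Successive groups from Div3 on did not overlap. Its molecules, 0.5 and 0.533 mRNAs per cell in Div0, 0.541 and 0.596 in Div8neg, and 0.453 and 0.419 in Div8pos, were not called in either of these comparisons.

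X-linked Kdm5c, a demethylase of the same lysine, was at 187 and 192 CPM in Div0, 194 and 202 in Div1, 208 and 208 in Div3, 209.8 and 213 in Div5, 216 and 205 in Div8neg, and 228 and 209 in Div8pos. It rose from Div0 to Div8neg (0.15, adjusted p = 0.0246), a call lost without Div0 or Div8neg of host 196 (0.112 and 0.18). Its Y-linked copy Kdm5d fell from 99 and 90.2 to 62.7 and 61 CPM (adjusted p = 9.81e-07, with a per-cell rise of 1.00) and to 33.4 and 32.8 in Div8pos (adjusted p = 3.37e-08). Kdm1a (LSD1), the lysine demethylase of CoREST complexes, was at 104 and 108 CPM in Div0, 109.6 and 113 in Div1, 114 and 122 in Div3, 123 and 115 in Div5, 128 and 128 in Div8neg, and 136 and 136 in Div8pos. It rose from Div0 to Div8neg (adjusted p = 0.00067). Kdm2b, which recruits a Polycomb complex to CpG islands, was at 153 and 159.5 CPM in Div0, 165 and 180.2 in Div1, 172 and 180.1 in Div3, 181 and 176 in Div5, 191 and 188 in Div8neg, and 138 and 121 in Div8pos. It rose from Div0 to Div8neg (0.28) and fell with CD138 (adjusted p = 0.00148 and 2.19e-06). Kdm4d, with few reads, was called lower in share from Div3 to Div5, Div5 to Div8neg and Div0 to Div8neg, at no more than 2.0 CPM in any library.

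Hdac genes encode the zinc-dependent deacetylases. Hdac11 and Hdac7 fell in share from Div3 to Div5 (of 11 tested). Hdac2 and Hdac5 rose and Hdac10, Hdac11, Hdac7 and Hdac9 fell in share from Div5 to Div8neg (of 11 tested). Hdac1, Hdac2 and Hdac3 rose and Hdac10, Hdac11, Hdac5 and Hdac7 fell in share from Div0 to Div8neg (of 11 tested). Hdac2 and Hdac7 rose and Hdac1, Hdac10, Hdac11, Hdac4 and Hdac9 fell in share from Div8neg to Div8pos (of 11 tested). In that order, 18.2%, 54.5%, 63.6% and 63.6% of tested Hdac genes were called, against 26.6%, 53.4%, 71% and 72% of all genes. From Div8neg to Div8pos the Hdac11 call rested on few reads, 22 and 17 in Div8neg and 10 and 6 in Div8pos. Hdac11, the class IV enzyme, was at 15.3 and 14 CPM in Div0, 18.4 and 18.5 in Div1, 16.8 and 13 in Div3, 8.42 and 6.97 in Div5, 1.53 and 1.3 in Div8neg, and 0.8 and 0.528 in Div8pos. Every Div8neg and Div8pos library was below every earlier one. It had the largest fall of the named members from Div0 to Div8neg (log2 change -3.36, SE 0.21, adjusted p = 1.2e-09), and fell from Div3 to Div5 (-0.94, adjusted p = 0.000528) and from Div5 to Div8neg (log2 change -2.43, SE 0.23, adjusted p = 6.31e-07). Its molecules were 0.452 and 0.494 mRNAs per cell in Div0, 0.83 and 1.18 in Div1, 0.768 and 0.733 in Div3, 0.658 and 0.488 in Div5, 0.153 and 0.14 in Div8neg, and 0.128 and 0.0754 in Div8pos. Per cell it fell from Div5 to Div8neg (limma, -1.44, adjusted p = 1.17e-08) and from Div0 (-1.22, adjusted p = 5.47e-08), and its values near the 0.1 pseudocount understate the fold.

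The class I enzymes went in different directions. Hdac2 was at 66 and 70.5 CPM in Div0, 64.1 and 69.4 in Div1, 66.4 and 63.7 in Div3, 69.2 and 71.2 in Div5, 94.3 and 92.4 in Div8neg, and 126 and 125 in Div8pos, with Div8neg above Div5 and Div8pos above Div8neg. It rose from Div5 to Div8neg (log2 change 0.41, SE 0.061, adjusted p = 4.5e-05), from Div0 to Div8neg (0.45, adjusted p = 7.32e-06) and with CD138 (log2 change 0.42, SE 0.059, adjusted p = 8.9e-06). Its close relative Hdac1, which shares the Sin3, NuRD and CoREST complexes, was at 243 and 243 CPM in Div0, 258 and 258 in Div1, 261 and 266 in Div3, 267 and 277 in Div5, 284 and 260.1 in Div8neg, and 189.9 and 168 in Div8pos. It fell with CD138 (log2 change -0.61, SE 0.063, adjusted p = 3.06e-07). Per cell Hdac1 was 35.8 and 35.5 in Div8neg and 38.6 and 30.3 in Div8pos, not called (-0.06, adjusted p = 0.822), while Hdac2 had 5.53 and 5.88 and 11.9 and 10.5. The difference between the 2 genes was not tested. Hdac3, the NCoR-bound enzyme, was at 82.9 and 80 CPM in Div0, 86.6 and 93 in Div1, 86.5 and 91.8 in Div3, 94.9 and 97.5 in Div5, 103 and 104 in Div8neg, and 113 and 105 in Div8pos. It rose from Div0 to Div8neg (adjusted p = 0.000131).

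Several class II enzymes shuttle between nucleus and cytoplasm. Hdac7 was at 233 and 238 CPM in Div0, 220.0 and 222 in Div1, 193 and 199.9 in Div3, 155 and 147 in Div5, 117 and 120.3 in Div8neg, and 161 and 167 in Div8pos. Its share fell from Div0 to Div8neg (log2 change -0.99, SE 0.053, adjusted p = 2.51e-10) while its molecules rose (0.68, lost without Div0 of host 196 or Div8neg of host 197). It rose with CD138 (log2 change 0.47, SE 0.054, adjusted p = 1.16e-06). Hdac5 was at 68.8 and 67.2 CPM in Div0, 57.2 and 57.8 in Div1, 50.1 and 51 in Div3, 47.1 and 44.8 in Div5, 54.6 and 56 in Div8neg, and 54.6 and 47.6 in Div8pos. It fell from Div0 to Div1 (-0.24, adjusted p = 0.0362), which was lost under DESeq2 (0.166) and without any 1 of the Div0, Div1 and Div8neg libraries (0.053 to 0.172). Hdac9 was at 24.6 and 23.6 CPM in Div0, 24.8 and 25.9 in Div1, 30.5 and 29.6 in Div3, 29.9 and 27.5 in Div5, 22 and 20.7 in Div8neg, and 11.4 and 15.3 in Div8pos. It fell with CD138 (adjusted p = 8.46e-05). Hdac10 and Hdac4 fell with CD138 as well (log2 changes -0.79 and -0.84), and Hdac6 and Hdac8 were not called in share in any comparison.

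Sirt genes encode the NAD-dependent deacylases. Sirt2 fell in share from Div3 to Div5 (of 7 tested). Sirt1 rose and Sirt2, Sirt4, Sirt6 and Sirt7 fell in share from Div5 to Div8neg (of 7 tested). Sirt2, Sirt4, Sirt5, Sirt6 and Sirt7 fell in share from Div0 to Div8neg (of 7 tested). Sirt1 and Sirt2 rose and Sirt4, Sirt6 and Sirt7 fell in share from Div8neg to Div8pos (of 7 tested). In that order, 14.3%, 71.4%, 71.4% and 71.4% of tested Sirt genes were called, against 26.6%, 53.4%, 71% and 72% of all genes. Sirt1, a nuclear deacetylase, was at 33.1 and 28.3 CPM in Div0, 28 and 22.6 in Div1, 27 and 22.9 in Div3, 25.3 and 26.9 in Div5, 36.8 and 32.9 in Div8neg, and 48.6 and 54.8 in Div8pos. Both Div8pos libraries were above all others. It rose with CD138 (log2 change 0.57, SE 0.11, adjusted p = 0.000212) and per cell from 2.33 and 2.26 to 4.98 and 4.99 (limma, 1.08, adjusted p = 1.11e-05). Its rise in share from Div5 to Div8neg (0.42, adjusted p = 0.00683) was lost without Div5 or Div8neg of host 196 (0.0596 and 0.075).

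Sirt7, a nucleolar deacetylase, was at 156 and 158 CPM in Div0, 166 and 161 in Div1, 166 and 162 in Div3, 151 and 147 in Div5, 118 and 117 in Div8neg, and 60.9 and 59.3 in Div8pos. Its share fell from Div0 to Div8neg and with CD138 (-0.42, adjusted p = 2.38e-06, and -0.96, adjusted p = 2.13e-10). Sirt6 and mitochondrial Sirt4 fell in share in both as well, whereas from Div0 to Div8neg Sirt7, Sirt6 and Sirt4 rose per cell (1.24, 1.33 and 0.96). Mitochondrial Sirt5 was at 5.88 and 5.56 CPM in Div0 and 1.88 and 1.38 in Div8neg (log2 change -1.80, SE 0.27, adjusted p = 2.27e-05), at low counts. Mitochondrial Sirt3 was at 10.3 and 12.2 CPM in Div0, 12.5 and 10.2 in Div1, 10.5 and 8.88 in Div3, 12.1 and 8.65 in Div5, 9.21 and 7.88 in Div8neg, and 9.12 and 8.46 in Div8pos. It was not called in share in any comparison (from Div0 to Div8neg -0.38, adjusted p = 0.0644, and 0.0357 with the replicate block), and 12.4% of its exon bases overlap a gene on the other strand.

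Kat genes encode acetyltransferases. Kat2b, Kat6a, Kat6b and Kat7 fell in share from Div3 to Div5 (of 7 tested). Kat6a and Kat6b fell in share from Div5 to Div8neg (of 7 tested). Kat2b, Kat5, Kat6a, Kat6b, Kat7 and Kat8 fell in share from Div0 to Div8neg (of 7 tested). Kat2b rose and Kat5, Kat6a and Kat8 fell in share from Div8neg to Div8pos (of 7 tested). In that order, 57.1%, 28.6%, 85.7% and 57.1% of tested Kat genes were called, against 26.6%, 53.4%, 71% and 72% of all genes. Kat6a (MOZ), which acts with BRPF proteins, was at 418 and 376 CPM in Div0, 331 and 344 in Div1, 318 and 294 in Div3, 249 and 249 in Div5, 181 and 189 in Div8neg, and 143 and 127 in Div8pos. It fell at every step tested but Div1 to Div3, first from Div0 to Div1 (log2 change -0.24, SE 0.065, adjusted p = 0.0323), a call lost without Div0 of host 196 (adjusted p = 0.269) or either Div1 library (0.157 and 0.0821). From Div0 to Div8neg its log2 change in share was -1.10 (adjusted p = 9.01e-10), while per cell it rose by 0.57, lost without Div0 of host 196 (0.08) or Div8neg of host 197 (0.126). Its relative Kat6b fell from 37.5 and 32.6 CPM in Div3 to 25.4 and 25.8 in Div5 (-0.45, adjusted p = 0.00154) and to 17.2 and 17.6 in Div8neg (adjusted p = 0.000138), and was not called in share with CD138 (0.10, adjusted p = 0.404). Per cell Kat6b rose in that step, from 0.345 and 0.384 to 0.625 and 0.513 (limma, 0.52, adjusted p = 0.0163), a call lost without Div8neg or Div8pos of host 196 (0.116 and 0.158).

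Kat2b (PCAF) was at 34 and 36 CPM in Div0, 37.5 and 34 in Div1, 33.3 and 30.6 in Div3, 23.9 and 26.5 in Div5, 22.3 and 26.7 in Div8neg, and 33.4 and 38.2 in Div8pos. It rose with CD138 (log2 change 0.55, SE 0.10, adjusted p = 0.000199), and per cell from 1.17 and 1.53 to 2.84 and 2.89, without overlap. It was the 1 Kat gene to gain share in any comparison. Its paralog Kat2a (GCN5), also of SAGA and ATAC complexes, was at 112 and 124 CPM in Div0, 95.9 and 111 in Div1, 98.3 and 108 in Div3, 109 and 106 in Div5, 118 and 116 in Div8neg, and 124 and 121 in Div8pos, and was not called in share in any comparison. Kat8 (MOF), which acetylates histone H4, was at 44 and 44.6 CPM in Div0, 36.9 and 38.4 in Div1, 37.8 and 36.2 in Div3, 34 and 34.6 in Div5, 32.3 and 31.2 in Div8neg, and 27.2 and 22.5 in Div8pos. Its share fell from Div0 to Div8neg (adjusted p = 7.81e-05, with a per-cell rise of 1.16) and with CD138 (adjusted p = 0.0022). Kat5 (TIP60) was at 71.6 and 67.8 CPM in Div0, 62.7 and 66.7 in Div1, 67.1 and 68.3 in Div3, 61.4 and 61.8 in Div5, 56.4 and 59.6 in Div8neg, and 50.2 and 48.6 in Div8pos. Its share fell in both comparisons as well (adjusted p = 0.00135 and 0.00529, the latter lost under DESeq2, 0.0612, and without Div8neg of host 197, 0.0532), with a per-cell rise of 1.37 from Div0 to Div8neg and with 18.9% of its exon bases shared with a gene on the other strand.

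**Figure D4:**
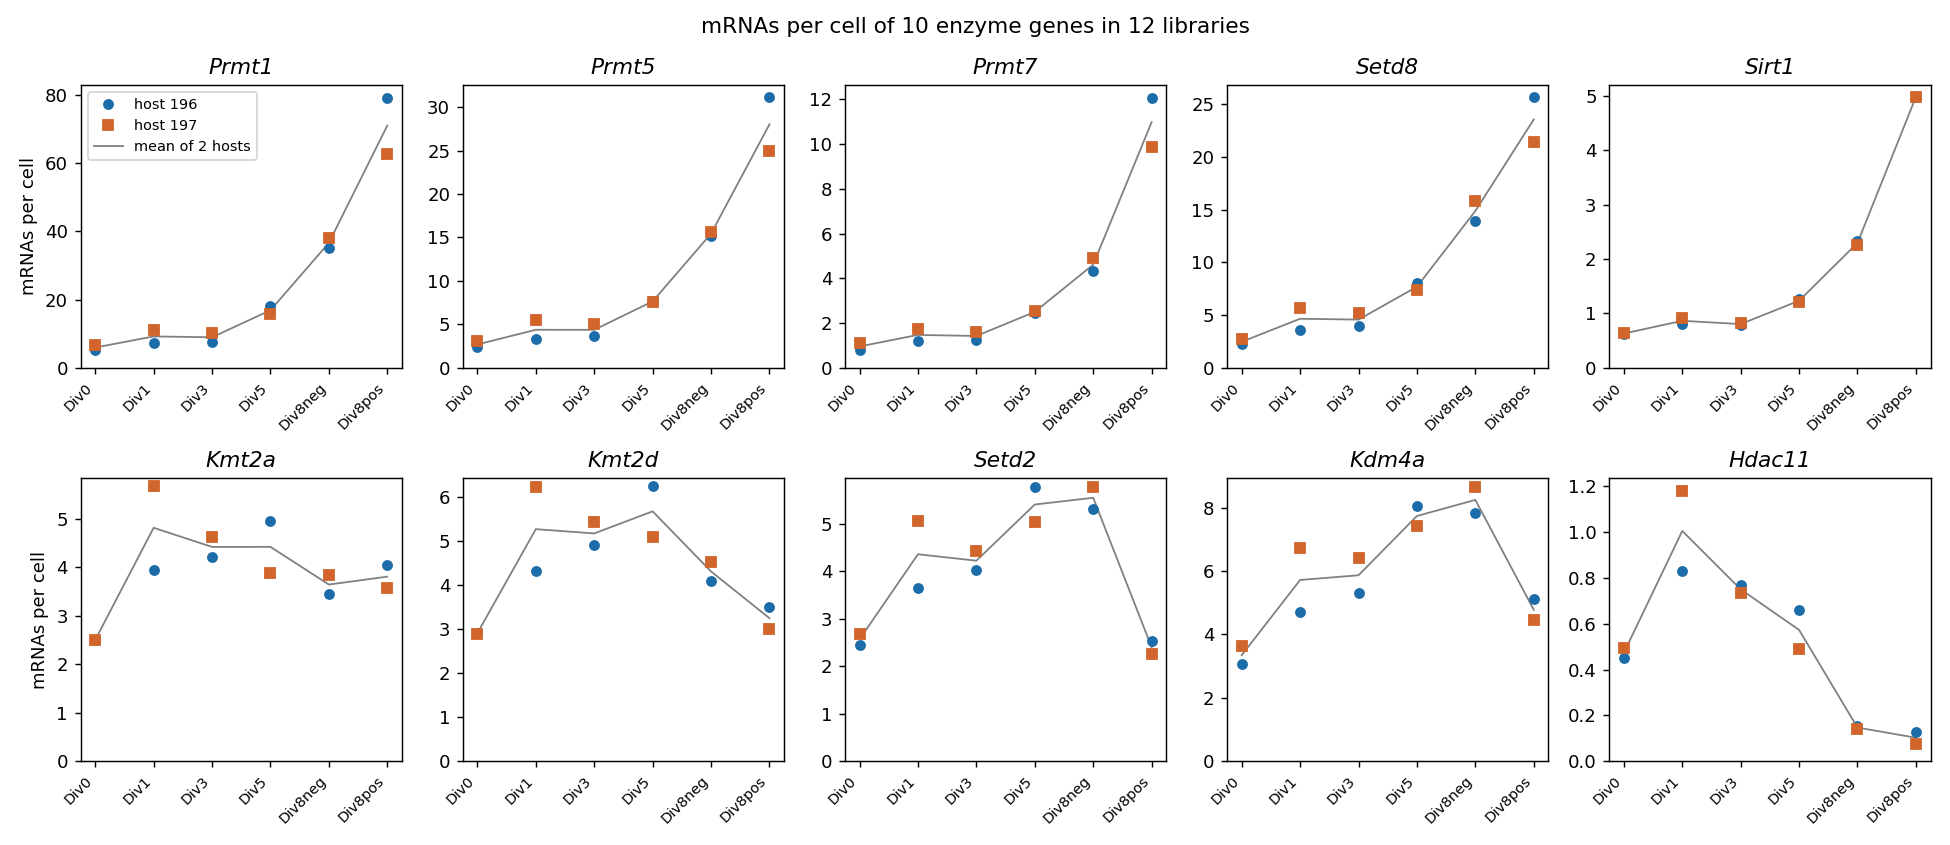
mRNAs per cell of 10 members in the 6 groups, chosen after their values were seen to show the patterns described. Points are the 2 hosts, grey lines join group means, and each axis starts at 0. Prmt1 goes from 5.14 and 6.73 in Div0 to 79.2 and 62.8 in Div8pos, Setd2 goes from 5.31 and 5.79 in Div8neg to 2.54 and 2.27 in Div8pos, and Hdac11 is at 0.128 and 0.0754 in Div8pos.

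Partners of these enzymes were counted from lists made for this work. Over all tested genes, 35.3% rose and 35.7% fell in share from Div0 to Div8neg, and 36.6% rose and 35.4% fell with CD138. Per cell, 88.4% rose and 1.65% fell from Div0 to Div8neg, and 52.1% rose and 16.3% fell with CD138. Of 13 COMPASS partners, subunits that work with Kmt2 and Setd1a, 8 rose and 3 fell in share from Div0 to Div8neg (median log2 change 0.25), and all 13 rose per cell (median 1.90). With CD138, 7 rose and 2 fell in share (median 0.17), and 10 rose and 0 fell per cell (median 0.71). Among the 5 Kmt2 genes themselves, from Div0 to Div8neg 0 rose and 4 fell in share (median -1.12), whereas 4 rose and 0 fell per cell (median 0.55).

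Of 25 partners of Hdac complexes, with CD138 7 rose and 17 fell in share (median -0.24), whereas 7 rose and 4 fell per cell (median 0.28). The largest of the falls in share was that of Chd3, a NuRD remodeller, at a log2 change of -2.82 (adjusted p = 7.04e-14), with Mta3 at -2.49. Of 30 partners of acetyltransferases, 6 rose and 11 fell in share with CD138, whereas 15 rose and 0 fell per cell. Of 19 tested other histone methyltransferases, 8 rose and 7 fell in share with CD138, and 10 rose and 1 fell per cell. Of 10 other acetyltransferases, 5 rose and 5 fell in share, and 5 rose and 0 fell per cell. Of 6 tested other demethylases, 1 rose and 2 fell in share, and 3 rose and 1 fell per cell.

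Longer genes were found among those that lost share. Members that fell with CD138 had a median exon length of 6125 bases and those that rose 4282 bases, and those that fell and rose from Div0 to Div8neg had 5949 and 3933. Across genes, the rank correlation of exon length with the log2 change from Div8neg to Div8pos was -0.221 over the 65 members and -0.085 over all 12026 genes. From Div3 to Div5 it was -0.357 and -0.157. Genes are not independent replicates and these are descriptions. The part of exon length in the calls was not tested. In GENCODE M21 (GRCm38), 6 members share over 10% of their exon bases with another gene, which are Setd1a, Prmt6, Kat5, Kdm2b, Kmt2e and Sirt3, and whether the counting used strand was not given in the sources used here.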

How the data were processed

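RNA was sequenced from 12 libraries of sorted B cells (6 groups, hosts 196 and 197). Stranded mRNA libraries were read as 50 bp pairs, with ERCC spike-ins added before extraction, per the labels' protocols. The authors deposited counts over exons of the UCSC mm9 KnownGenes, per the readme, and mRNAs per cell scaled by the spike-ins. The mRNAs per cell equalled the deposited FPKM times 1 spike-in factor per library, which was checked on the files. Tools were Picard and R 3.2.2 with mm9, per the submitters' processing notes. Aligner and counter were not given in the sources used here. Rows without a symbol (90) held 0.0498% to 0.0943% of counts and were left out.

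Relative changes used edgeR 4.0.16 (quasi-likelihood, TMM, filterByExpr, all libraries) on the counts, and per-cell changes limma 3.58.1 on the deposited mRNAs per cell, with a pseudocount of 0.1. P-values were adjusted by Benjamini-Hochberg over 12026 genes in R 4.3.3. The tests were tested on simulated data. Same-host libraries come from the same animal per the labels: host deviations correlated at -0.0123 to 0.398 over 15 group pairs, and chi-square per degree of freedom between replicates was 2.48 to 4.38. Alternatives included DESeq2 1.42.0, other factors, filters and pseudocounts, a host block and leaving out each library.

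The members and lists were chosen with earlier results of these data known. The rule for named genes took up to 6 called members per direction and comparison by log2 change, with at least 3 CPM, plus fixed anchors. Deposited RPM values were not used.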

Additional observations from a re-analysis of the deposited data

How the results depend on the processing

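Relative counts of called members moved without a low-count filter to 5 (Div1 against Div0) and 2 (Div3 against Div1), and with the replicate block to 7 and 3. The block changed 15 relative and 5 per-cell member calls, all from not called to called. Leaving out 1 library gave relative counts of 1 to 4 (Div1 against Div0), 1 (Div3 against Div1), 9 to 27 (Div5 against Div3), 31 to 41 (Div8neg against Div5), 46 to 52 (Div8neg against Div0) and 40 to 45 (Div8pos against Div8neg). The same omissions gave per-cell counts of 2 to 64, 0 to 1, 0 to 36, 8 to 29, 51 to 60 and 16 to 39 in that order. Without a filter the per-cell counts were 0 (Div5 against Div3) and 14 (Div8neg against Div5). Without its most abundant member, the Div8neg to Div0 ratio of summed mRNAs per cell was 2.41 for Kdm, 1.54 for Kmt2, 3.04 for Setd, 2.51 for Hdac, 4.46 for Prmt and 2.16 for Kat, and the Div8pos to Div8neg ratio 1.52 for Hdac and 1.07 for Sirt. The ratios of 1 host alone were added after seeing the data. These alternative counts cover the members alone, and the matching shares of all tested genes are not given. For counts that moved, the cause was not tested. No called member reversed direction within either scale in any alternative run. In every alternative, 44 of 51 relative and 51 of 60 per-cell calls from Div0 to Div8neg were kept, and 36 of 45 and 15 of 34 from Div8neg to Div8pos. With 2 libraries per group, a left-out library leaves 1 that is assumed to vary like the other groups.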
